A study of Rattus norvegicus with 6 samples.

Results

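The kallikreins are a family of secreted serine proteases whose genes lie side by side on rat chromosome 1. Described here are the 6 of them named Klk12, Klk10, Klk1b21, Klk1l, Klk1 and Klk8 in the probe annotation, out of 26456 gene names on the array. They were taken as a group because of their difference between the strains in these same arrays, so that difference is given for them as a description without a test. Each member was measured by 1 probe with 1 spot per array. All 6 had a value on every array, and 4 of them, Klk12, Klk10, Klk1b21 and Klk1l, were well above background on all 3 arrays of a strain and so entered the fit over all genes. Klk1 and Klk8 were not well above background on any array.

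Kallikreins are made as inactive zymogens and cleave extracellular proteins once activated. Tissue kallikrein, the founding member, releases kinins from kininogen, and kinins act through the B1 and B2 bradykinin receptors on vessels and heart muscle. Rodents carry an expanded group of close relatives of tissue kallikrein, often called glandular kallikreins after their abundance in the salivary gland, while the remaining members of the locus are found in many other mammals too and are best known from skin, brain and glandular epithelia.

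RNA of left ventricle from 6 male rats was hybridised to Agilent arrays in a single colour, with 1 array for each rat. OLETF rats, an inbred strain, grow obese and develop type 2 diabetes, whereas LETO rats are their non-diabetic controls, so strain and diabetes cannot be told apart here. LETO 1 was 27 weeks old and LETO 2 and LETO 3 were 28 weeks old, whereas OLETF 1 and OLETF 3 were 27 weeks old and OLETF 2 was 28 weeks old. The labels speak of 3 independent experiments per strain, and p-values therefore measure the spread between these samples.

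Values are log2 of the background-corrected spot signal minus the 75th percentile of the array, so 0 is a bright probe and a step of 1 is a doubling or halving of the signal. Between 75.5% and 79.8% of spots were well above background on each array, and the lowest level well above background lay between −6.45 and −5.68. All 10 cardiomyocyte markers were above background, and 0 of them were called. Their presence marks heart muscle but does not tell ventricle from atrium, so the ventricle label was not checked by them. The first slide held LETO 1 to 3 together with OLETF 1, and a further slide held the remaining OLETF rats, so each member's difference is also given within the first slide, as OLETF 1 minus the mean of the 3 LETO arrays. Over all 18816 genes tested with limma, 2.55% were called at an adjusted p below 0.05, with 1.50% higher and 1.05% lower in OLETF. In whole ventricle, fewer cells of a type and less RNA per cell cannot be told apart.

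At one end of the locus lie the 4 tested kallikreins Klk14, Klk12, Klk11 and Klk10. Their 60-base probes are shown because Klk12 and Klk10, the members with the widest gaps between strains, flank Klk11, whose strains overlapped. None of these 4 probes shares more than 14 bases in a row with the probe of another kallikrein, so no stretch is in capitals.
Klk14: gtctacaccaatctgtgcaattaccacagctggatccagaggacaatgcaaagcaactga
Klk12: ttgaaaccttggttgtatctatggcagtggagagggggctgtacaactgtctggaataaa
Klk11: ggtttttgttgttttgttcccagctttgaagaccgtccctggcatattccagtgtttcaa
Klk10: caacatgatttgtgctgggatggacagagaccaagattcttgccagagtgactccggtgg
The longest run shared with another kallikrein probe is 14 bases for Klk14, 7 for Klk12, 8 for Klk11 and 10 for Klk10. On the rn4 build the Klk12 probe lies at chr1:94203058-94203117 on the plus strand, and its 60 bases span 60 bases of genome. The Klk11 probe follows at chr1:94208588-94208647, 5.47 kb further on. The Klk10 probe lies 5.09 kb beyond that, at chr1:94213733-94214159, where its 60 bases span 427 bases of genome, so that the probe reads across at least 1 exon junction.

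Klk12, a trypsin-like secreted protease, was the member with the widest separation. Its level was −1.14 in LETO 1, −1.02 in LETO 2 and −1.33 in LETO 3. In OLETF it was −5.81, −5.77 and −6.40 in replicates 1 to 3. All 3 LETO rats had a clear signal, whereas the OLETF signal was well above background in 1 of 3 rats, and 4.45 log2 units lay between the lowest LETO and the highest OLETF array. In the deposited intensities this was a processed signal of 479, 470 and 422 units in LETO and 21.9, 16.2 and 14.6 units in OLETF. The means were −1.16 ± 0.15 (SD, n = 3) in LETO and −5.99 ± 0.35 (SD, n = 3) in OLETF, a difference of −4.83. With each OLETF array raised, where it was lower, to the lowest level well above background on it, the OLETF mean was 27.9-fold lower. The measured means differed 28.5-fold. That lowest level is taken over all probes and is not a detection limit, so the raised fold is not a lower bound. OLETF 3, at −6.40, was not well above background although the lowest level on that array was −6.41. Within the first slide the difference was −4.65.

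Klk10, a kallikrein first described from its loss in breast tumour cells, was well above background on all LETO arrays and on no OLETF array. LETO 1 to 3 had levels of −2.45, −3.21 and −3.41. OLETF 1 to 3 had −6.88, −6.24 and −6.01, none of them well above background. LETO 1 was the highest of the LETO arrays, and even the lowest LETO array stood 2.59 log2 units over the highest OLETF array. The means were −3.02 ± 0.51 (SD, n = 3) and −6.37 ± 0.45 (SD, n = 3), a measured difference of −3.35. With OLETF arrays raised as for Klk12, Klk10 was 8.11-fold lower in OLETF, which is not a lower bound. The difference was −3.85 within the first slide and −3.06 without LETO 1.

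Klk11, a trypsin-like kallikrein also known as hippostasin, lies between them and was no member. Its LETO levels were −4.22, −4.69 and −4.43, and its OLETF levels were −4.54, −4.20 and −4.52, all well above background. The strains overlapped, with a difference of 0.02 ± 0.15 (SE) and an adjusted p of 0.984 in limma. This difference was −0.10 within the first slide, so its sign is not settled.

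Klk14, a kallikrein active in skin shedding, had the probe at the end of the locus, 98.0 kb before that of Klk12, and is named after its values were seen. It had levels of −2.25, −4.27 and −4.31 in LETO and of −7.00, −6.08 and −5.67 in OLETF. LETO 1 stood far over the other LETO arrays, and all OLETF arrays lay below all LETO arrays, with 1 of 3 OLETF arrays well above background. The difference of −2.64 ± 0.60 (SE) did not pass limma's test at an adjusted p of 0.0818, which ran from 0.0702 to 0.236 over the alternatives. The difference was −1.96 without LETO 1 and −0.99 under normexp with quantile normalization. With OLETF arrays raised as for Klk12, Klk14 was 5.0-fold lower in OLETF, which is not a lower bound.

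**Figure D1:**
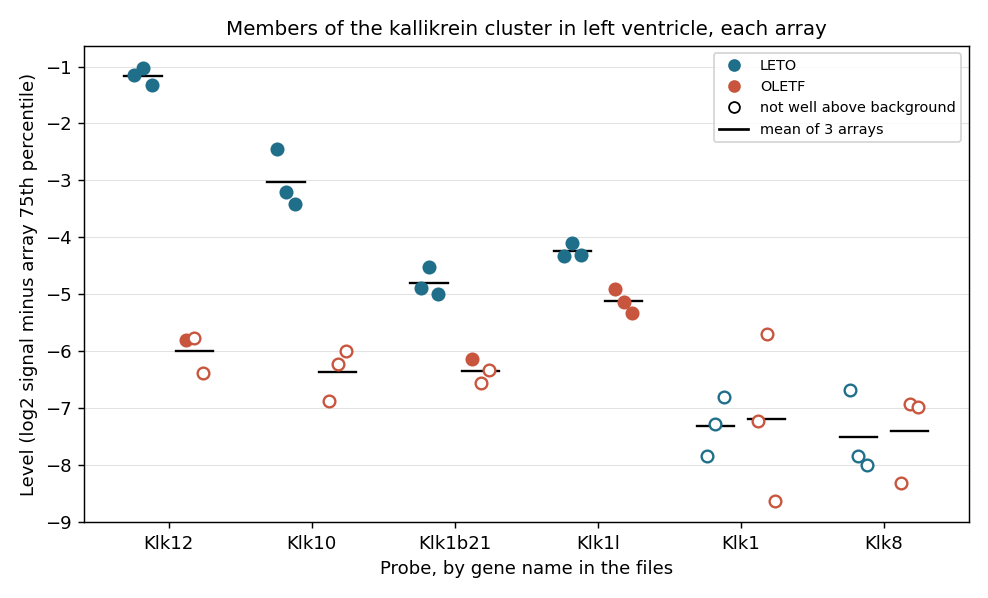
Level of the 6 member probes on each array (log2 signal minus the array's 75th percentile), with LETO in blue, OLETF in red, open circles for arrays not well above background and black bars for the mean of 3 arrays. Klk12, Klk10, Klk1b21 and Klk1l have every OLETF array below every LETO array, from the 4.45 log2 gap of Klk12 to the 0.58 log2 gap of Klk1l, while all points of Klk1 and Klk8 are open.

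The remaining members, apart from Klk8, are glandular kallikreins or tissue kallikrein itself, and their array names need care. The probe named Klk1l carries the accession that RefSeq now calls Klk1, the true tissue kallikrein. The probe named Klk1 carries that of Klk1c12, and the probe named Klk1b21 that of Klk1c8, both glandular relatives. The probes of this group are shown because they share long runs of bases, and the capitals mark the longest run that each shares with another kallikrein probe.
Klk1b21: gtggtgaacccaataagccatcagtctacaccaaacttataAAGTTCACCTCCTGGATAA
Klk1l: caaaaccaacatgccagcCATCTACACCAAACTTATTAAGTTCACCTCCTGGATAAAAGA
ENSRNOT00000025777: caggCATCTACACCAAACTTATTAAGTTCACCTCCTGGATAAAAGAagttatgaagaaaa
Klk1: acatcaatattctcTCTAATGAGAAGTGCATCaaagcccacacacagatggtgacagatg
Ton: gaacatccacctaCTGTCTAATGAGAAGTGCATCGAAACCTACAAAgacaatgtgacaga
The Klk1l probe and that of ENSRNOT00000025777, which the files describe as a submandibular glandular kallikrein, have 42 of 60 bases in 1 shared run. The Klk1b21 probe shares 19 bases with each of them, and the Klk1 probe shares 18 bases with that of Ton. The capitals of Ton mark its run of 33 bases shared with the probe of Klks3, a further glandular kallikrein that was not above background. Klk1b3 and ENSRNOT00000045756 share a run of 29 bases. Signal of one glandular kallikrein on the probe of another was not tested, and these genes are therefore uncertain as single genes.

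Klk1b21, the probe for Klk1c8, lies at chr1:94531050-94531109 (rn4). LETO 1 to 3 had levels of −4.90, −4.52 and −4.99. OLETF 1 to 3 had −6.15, −6.55 and −6.33. The strains did not overlap, with a gap of 1.15 log2 units, but only 1 of 3 OLETF arrays was well above background. The means were −4.80 ± 0.25 (SD, n = 3) in LETO and −6.34 ± 0.20 (SD, n = 3) in OLETF, a difference of −1.54. Klk1b21 was 2.38-fold lower in OLETF with arrays raised as for Klk12, which is not a lower bound, and the difference was −1.34 within the first slide. In processed signal this was 35.3, 41.6 and 33.2 units in LETO against 17.3, 9.44 and 15.3 units in OLETF, so the whole difference lies among dim spots.

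Klk1l, the probe for tissue kallikrein itself, lies at chr1:94628741-94628800 (rn4) and was the only member well above background on all 6 arrays. Its levels were −4.32, −4.10 and −4.32 in LETO. They were −4.90, −5.13 and −5.34 in OLETF. All OLETF arrays were lower, with OLETF 1 closest to the LETO arrays and a gap of 0.58 log2 units. The means were −4.25 ± 0.13 (SD, n = 3) and −5.12 ± 0.22 (SD, n = 3), a difference of −0.87 or 1.83-fold. Within the first slide the difference was −0.65.

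Klk1, the probe for Klk1c12, at chr1:94356323-94356382 on the minus strand, was not well above background on any array. Its LETO levels were −7.85, −7.28 and −6.81, and its OLETF levels were −7.23, −5.70 and −8.63. The OLETF values reached both above and below the LETO values, and no fold is given. Klk8, also called neuropsin and best known for its part in synaptic plasticity in the hippocampus, lies at chr1:94233905-94233964. It had levels of −6.69, −7.85 and −8.00 in LETO and of −8.32, −6.93 and −6.98 in OLETF. These too overlapped and were not well above background on any array, so neither gene was detectable at this signal.

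Of the members, 4 of 4 tested had all 3 OLETF arrays below all 3 LETO arrays. Over all genes tested this held for 8.43%, and the reverse for 8.92%. Klk12, Klk10 and Klk1b21 were well above background on all LETO arrays and on fewer than 3 OLETF arrays, as were 1.51% of all genes tested. The members were chosen on this contrast, and Klk12, Klk10 and Klk1b21 were tested only through LETO, where they were bright, so nothing is read from that count. Just inside the group stood Klk1l at −0.87, while the 5 tested genes with another kallikrein name, none of them called, ran from −2.64 for Klk14 to 0.02 for Klk11. Within a strain the arrays did not fall in the same order for the 4 tested members. In LETO, the highest array was LETO 1 for Klk10 and LETO 2 for Klk12, Klk1b21 and Klk1l. In OLETF, the lowest array was OLETF 3 for Klk12 and Klk1l, OLETF 1 for Klk10 and OLETF 2 for Klk1b21.

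The size of these differences changed when background correction and normalization were changed in 1 step. With normexp correction, an offset of 50 and quantile normalization, Klk12 differed by −2.71, Klk10 by −1.13, Klk1b21 by −0.42 and Klk1l by −0.33. Over all alternatives in which they had a value, Klk12 ran from −4.94 to −2.71, Klk10 from −3.85 to −1.13, Klk1b21 from −1.64 to −0.42 and Klk1l from −0.98 to −0.33, always lower in OLETF.

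The promoters of the tested members are given next, from 250 bases before to 50 bases after the annotated start, since 4 genes of 1 locus were lower in the same strain. They come from RefSeq on the GRCr8 build, which holds an entry for 5 of the 6 members, and are reference sequence, not that of either strain. Capitals mark TGACTCA (read on the reverse strand) in Klk12, AGAACA in Klk10 and TTTAAA in Klk1c8 and Klk1.
Klk12 promoter, chr1:103359077-103359376, plus strand: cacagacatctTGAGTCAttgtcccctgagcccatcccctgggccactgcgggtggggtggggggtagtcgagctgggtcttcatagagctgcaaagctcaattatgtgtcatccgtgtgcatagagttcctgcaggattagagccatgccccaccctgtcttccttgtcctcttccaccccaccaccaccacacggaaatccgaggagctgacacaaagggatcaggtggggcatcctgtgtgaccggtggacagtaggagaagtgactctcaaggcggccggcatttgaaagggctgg
Klk10 promoter, chr1:103371388-103371687, plus strand: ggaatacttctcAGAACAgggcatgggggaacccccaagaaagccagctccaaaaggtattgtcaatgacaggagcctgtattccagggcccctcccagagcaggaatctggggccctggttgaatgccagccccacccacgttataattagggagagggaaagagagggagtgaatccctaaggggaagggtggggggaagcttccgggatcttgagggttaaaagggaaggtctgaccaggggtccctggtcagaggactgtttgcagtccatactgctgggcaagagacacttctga
Klk1c8 promoter (the Klk1b21 probe), chr1:103684043-103684342, plus strand: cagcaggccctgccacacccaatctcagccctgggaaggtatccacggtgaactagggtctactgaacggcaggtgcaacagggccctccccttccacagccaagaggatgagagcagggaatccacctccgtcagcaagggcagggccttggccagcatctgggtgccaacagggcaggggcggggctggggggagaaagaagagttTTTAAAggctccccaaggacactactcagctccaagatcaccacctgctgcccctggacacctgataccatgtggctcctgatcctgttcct
Klk1 promoter (the Klk1l probe), chr1:103778902-103779201, plus strand: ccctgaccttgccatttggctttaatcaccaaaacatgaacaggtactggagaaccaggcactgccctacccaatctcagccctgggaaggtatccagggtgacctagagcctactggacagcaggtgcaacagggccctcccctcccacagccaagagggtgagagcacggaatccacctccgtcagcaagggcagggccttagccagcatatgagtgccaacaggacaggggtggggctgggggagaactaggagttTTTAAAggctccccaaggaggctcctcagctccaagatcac
Among the 4 promoters shown only Klk1c8 and Klk1 stood out, with 75% identity over the 300 bases in a global alignment. The promoter of Klk1c12, the gene of the untested probe named Klk1, was 81.7% identical to that of Klk1c8 and 67% to that of Klk1. Klk12 and Klk10 were 58.7% identical, no more than Klk12 and Klk1 (59%) or Klk10 and Klk1 (60%). Among the 21 kallikrein promoters of the locus, the 36 pairs of glandular promoters had a median identity of 78.0%. The 66 pairs of the other kallikreins had a median of 58.7%, and the 108 mixed pairs had 59.3%.

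Of 6 motifs searched on both strands, TTTAAA, a variant of the TATA box, was in 9 of 9 glandular promoters and in 0 of the 12 others, and 13.5% of all 27457 promoters hold it. It began 42 bases before the annotated start in Klk1c8 and 9 bases after it in Klk1. TATAAA was in none of the 9 glandular promoters and in 1 of the 12 others, against 14.3% of all promoters. TGACTCA, the motif bound by AP-1, began 239 bases before the start of Klk12. It was in 2 of 9 glandular promoters and 2 of the 12 others, against 4.53% of all promoters. AGAACA, which matches one side of a steroid receptor element, began 238 bases before the start of Klk10. It was in 0 of 9 glandular promoters and 2 of the 12 others, against 20.1% of all promoters. CCAAT was in 8 of 9 glandular promoters and 2 of the 12 others, against 37.7% of all promoters, and GGGCGG was in 6 of 9 and 3 of 12, against 34.9%. TTTAAA and TATAAA share their last 4 letters, and no other motifs overlap in that way. None of the 6 motifs was in both Klk12 and Klk10, and a match is a description of the letters only. The glandular promoters resemble each other, with a median identity of 78.0% between pairs. Their motif counts are therefore not independent matches to set against the share over all promoters.

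**Figure D2:**
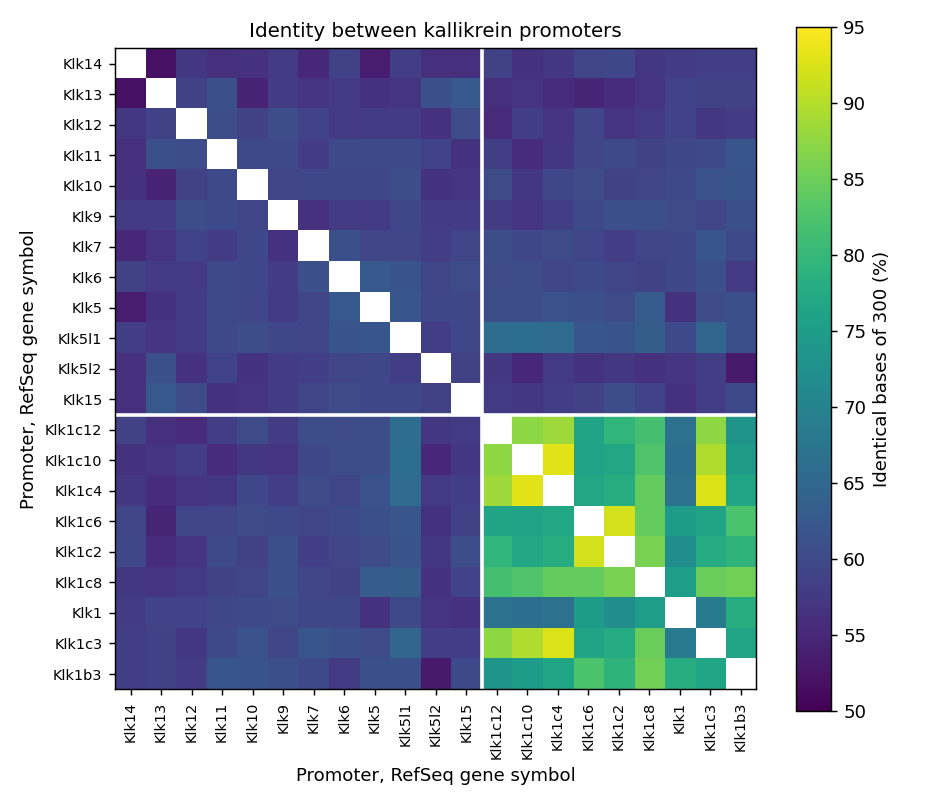
Share of identical bases (colour, % of 300) between the RefSeq promoters of 21 kallikrein genes of the locus, with white lines between the glandular group at the lower right and the others. Glandular pairs lie between 66.3% and 93.0%, while pairs of the other kallikreins, including Klk12 and Klk10, lie between 52.0% and 62.3%.

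The array names 14 other kallikrein genes, and 5 of them were tested. None of the 5 was called higher or lower by limma at an adjusted p below 0.05, and 3 had an unadjusted p below 0.05, as did 12.4% of all genes tested. The median difference of the 5 was −1.03, beside −0.01 over all genes tested, and 4 of 5 had all OLETF arrays below all LETO arrays. Klk14, Ton and Klk1b3 passed the filter only through LETO, where they were bright, so nothing is read from this median or count. Klk1c10, a glandular relative well above background on all 6 arrays, had levels of −4.56, −4.82 and −4.93 in LETO and of −5.76, −5.14 and −4.95 in OLETF. The strains did not overlap, but the gap was only 0.012 log2 units. The Klk1c10 difference was −0.51 ± 0.22 (SE), with an adjusted p of 0.403 in limma. It was −0.98 within the first slide, −0.27 without OLETF 1 and −0.18 under normexp with quantile normalization.

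Ton and Klk1b3 are the remaining 2 tested, named after their values were seen. Ton is tonin, a rat enzyme that can release angiotensin II from angiotensinogen. On the Ton probe it differed by −1.17 ± 0.38 (SE), with an adjusted p of 0.234 in limma, and 2 of 3 OLETF arrays were well above background. Another probe described as tonin, M26533, was not well above background on any array. The Ton difference was −0.69 without OLETF 2, −0.62 within the first slide and −0.26 under normexp with quantile normalization. Klk1b3 had levels of −5.18, −4.80 and −5.10 in LETO and of −5.22, −6.55 and −6.40 in OLETF. OLETF 1 stood beside the LETO arrays and the other OLETF arrays stood lower. The difference was −1.03 ± 0.34 (SE), with an adjusted p of 0.242 in limma. Without OLETF 1 it was −1.45 and was called, with an adjusted p of 0.0118 in limma where the alternatives ran from 0.0118 to 1.00, and it was −0.19 within the first slide and −0.23 under normexp with quantile normalization. The other 9 kallikrein names, among them plasma kallikrein (Klkb1), were not tested, and 8 of these 9 were not well above background on any array.

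**Figure D3:**
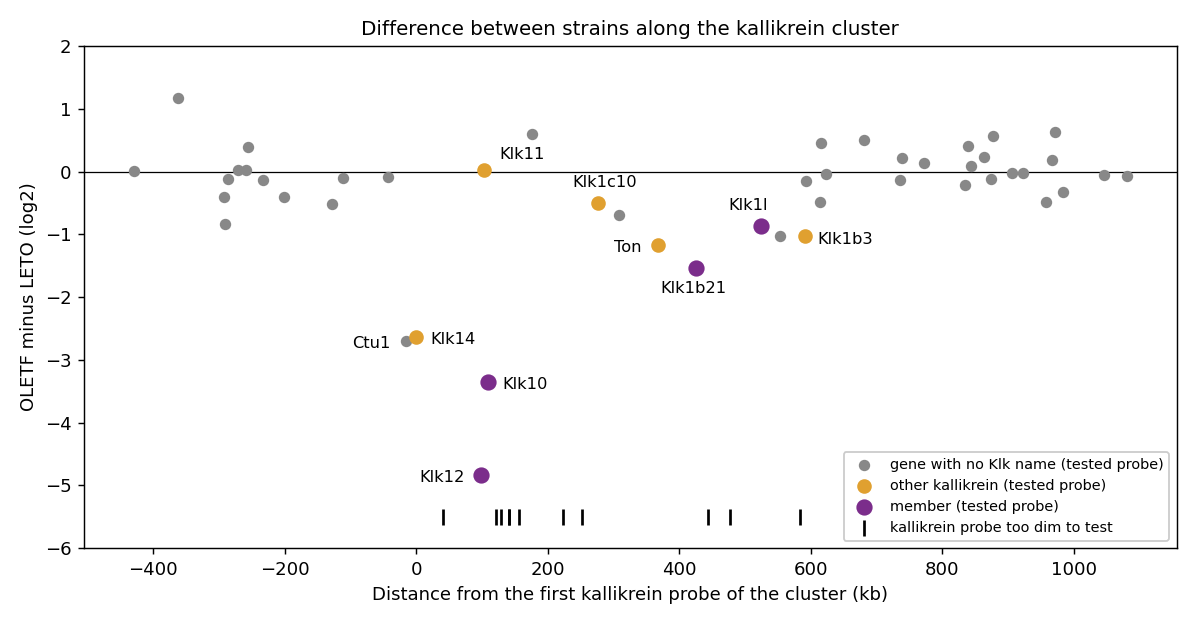
OLETF minus LETO (log2) for tested probes against distance in kb from the first kallikrein probe, with members in purple, other kallikreins in orange, other genes in grey and ticks for kallikrein probes too dim to test. The near Ctu1 probe, Klk14, Klk12 and Klk10 lie between −4.83 and −2.64 within 125 kb, and Klk11 sits at 0.02 among them. The far Ctu1 probe, with a difference of 0.28, is not drawn. The glandular kallikreins lie between −1.54 and −0.51.

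Outside the kallikrein names, 54 gene names had a probe within the locus or up to 500 kb beside it, and 40 of them were tested. None was called higher and 4 were called lower by limma, which is 10% of the 40, against 1.05% lower over all genes. The called genes include ENSRNOT00000025777, itself described as a glandular kallikrein, whose probe shares a long run with that of the member Klk1l. This share is therefore not independent of the members, and nothing is read from it. Their median difference was −0.05. Ctu1, a subunit of the enzyme that thiolates the wobble uridine of some tRNAs, was the gene nearest to Klk14 with a tested probe, 15.6 kb away. The Ctu1 probe near Klk14 had levels of −1.18, −0.49 and −0.62 in LETO and of −3.67, −3.33 and −3.40 in OLETF. All 6 arrays were well above background and the strains lay 2.14 log2 units apart. This probe, which stood for Ctu1 in the fit, fell by 2.70 on the log2 scale with an SE of 0.19 and an adjusted p of 0.000939 in limma. It was called under 15 of 15 alternatives, which all concern this probe and not the other Ctu1 probe.

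A second Ctu1 probe, 1.52 kb further from the kallikreins, did not move with the first. LETO had levels of −3.24, −3.24 and −3.13 there and OLETF had −2.90, −2.89 and −2.98, all well above background. Here the OLETF arrays were the higher ones, and the difference was 0.28 ± 0.08 (SE) with an adjusted p of 0.178 when limma was fitted to every probe on its own. The near probe had a difference of −2.70 and an adjusted p of 0.000925 in that fit.

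ENSRNOT00000025777, the glandular kallikrein whose probe shares the 42-base run with that of Klk1l, fell by 1.03 on the log2 scale with an SE of 0.17 and an adjusted p of 0.0280 in limma. LETO had levels of −3.88, −3.45 and −3.94, and OLETF had −4.59, −5.05 and −4.71, with no overlap. Under normexp with quantile normalization the difference was −0.39. The call was lost under 10 of 15 alternatives, as was that of RGD1561832, a predicted gene that fell by 0.51 (SE 0.10, adjusted p 0.0447 in limma). Without LETO 1, LETO 2, OLETF 1, OLETF 2 or OLETF 3 the ENSRNOT00000025777 call was lost in each case, and the RGD1561832 call was lost without LETO 2, LETO 3, OLETF 1, OLETF 2 or OLETF 3. Nkg7, a granule protein of natural killer and cytotoxic T cells, fell by 0.84 (SE 0.13, adjusted p 0.0220 in limma), and lost its call under 6 of 15 alternatives, among them those without LETO 2, OLETF 1, OLETF 2 or OLETF 3. Its probe lies 291 kb before that of Klk14. On the far side the nearest tested gene was ENSRNOT00000046737, with a difference of −0.15 ± 0.10 (SE) and an adjusted p of 0.692 in limma. ENSRNOT00000025777 stands among these genes because it has no Klk name in the files and none through a RefSeq accession. The same holds for ENSRNOT00000045756, Gk11 and M26533, which the files or RefSeq synonyms also describe as kallikreins, and none of these 3 was called, the last 2 being too dim to test.

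**Figure D4:**
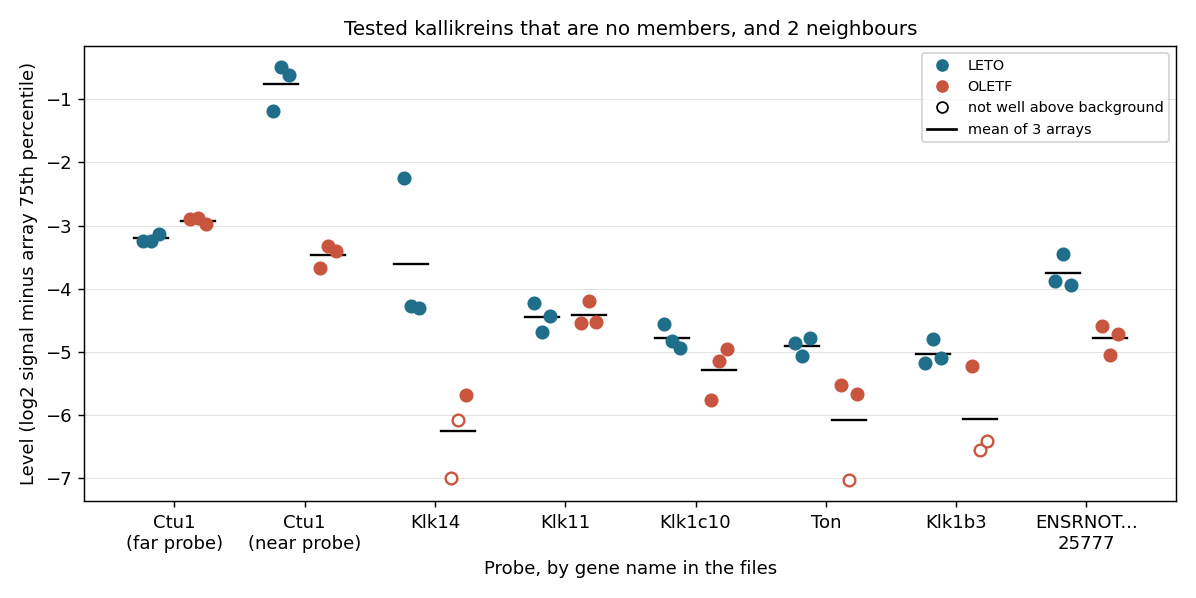
Level on each array (log2 signal minus the array's 75th percentile) of both Ctu1 probes, the 5 tested kallikreins that are no members, and ENSRNOT00000025777, with LETO in blue, OLETF in red and open circles for arrays not well above background. The far Ctu1 probe is slightly higher in OLETF (0.28) while the near one is lower by 2.70, and LETO 1 stands apart for Klk14.

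Markers of other cell types are given beside these values, since several kallikreins are known from gland cells. Of 8 glandular epithelium markers 2 were tested. Amy1a, an amylase, fell by 1.07 (adjusted p 0.00641 in limma), and Epcam, Cdh1, Krt8, Krt7, Cldn4 and Aqp5 were not above background. Amy1a had levels of −5.35, −5.33 and −5.32 in LETO and of −6.56, −6.49 and −6.14 in OLETF. In OLETF 1 and OLETF 2 it lay below the lowest level well above background, −6.45 and −5.68. It therefore passed the filter only through LETO, and nothing is read from its call. The summed linear level of the 2 tested markers was 0.0555 to 0.0968 in LETO and 0.0419 to 0.0584 in OLETF. Of the lymphocyte markers 3 were tested and 2, Cd3g and Nkg7, were called lower in OLETF. The other, Cd3d, differed by −0.16 with overlapping strains and was not called (adjusted p 0.664 in limma). Their summed levels were 2.26 to 2.80 in LETO and 1.55 to 1.63 in OLETF. Nkg7 was the brightest of the 3 and is also the called gene beside the locus, so this sum is not independent of it. Cd3e, Cd79b and Ms4a1 were not above background. Among the other lists, Slc12a3 of kidney tubule, Cpa3 of mast cells and Slc4a1 of red blood cells were higher in OLETF, by 1.00, 1.03 and 3.19 on the log2 scale. The other tested red blood cell markers went the other way, Hba-a2 by −0.94 and Hbb by −2.22, neither called. Of the other tested kidney tubule markers, Umod differed by −0.05, Aqp2 by −0.09 and Cdh16 by 0.34, none called. The neutrophil and mast cell list that holds Cpa3 had a median difference of 0.84. The 3 tested smooth muscle markers had a median difference of −0.78, with none called and summed levels of 3.12 to 6.55 in LETO and 2.55 to 3.51 in OLETF. The part of these cells in the kallikrein differences was not tested.

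Other genes of the kallikrein-kinin system come from a list of 24 symbols, of which 15 were tested. None was called higher or lower by limma and 2 had an unadjusted p below 0.05, beside 2.55% called and 12.4% with such a p over all genes, so the counts are near the background. Their median difference was 0.02, beside −0.01 over all genes. Bdkrb2, the constitutive B2 receptor for bradykinin, had levels of −3.94, −4.33 and −4.04 in LETO and of −4.26, −4.04 and −4.01 in OLETF. The strains overlapped, and the difference was 0.00 ± 0.13 (SE). Ace, which degrades bradykinin and forms angiotensin II, differed by −0.02 ± 0.16 (SE). Neither sign held under the alternatives. Kng1, the array's name for a kininogen that RefSeq calls Kng2, Bdkrb1, the inducible B1 receptor, and Klkb1 were not well above background on any array.

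**Figure D5:**
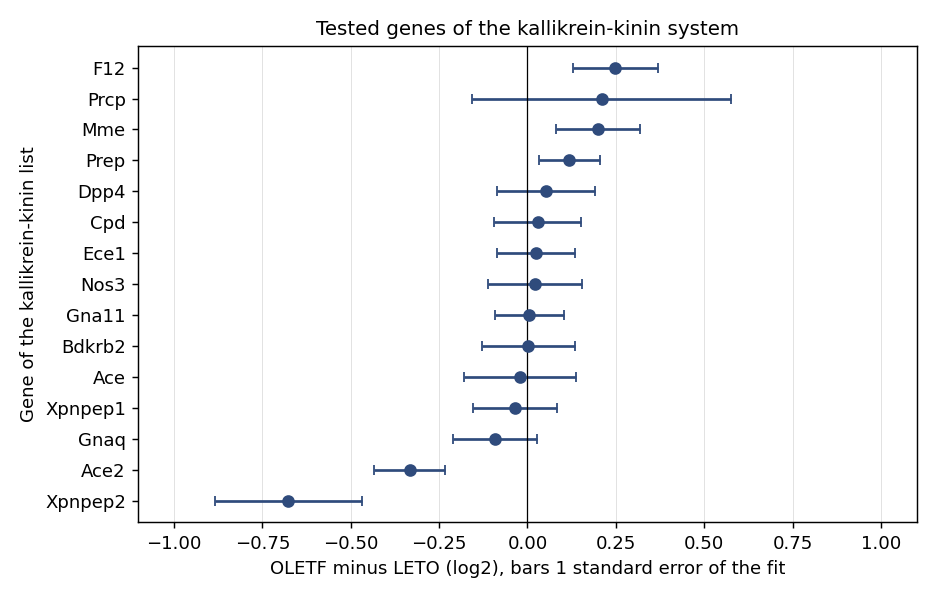
OLETF minus LETO (log2) with 1 standard error of the limma fit for the 15 tested genes of the kallikrein-kinin list, ordered by difference. They run from −0.68 for Xpnpep2 to 0.25 for F12, around a median of 0.02, and none was called.

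The inhibitors and substrates had 0 calls, which is near the 2.55% called over all genes. Over all genes tested 12.4% had an unadjusted p below 0.05 in limma. Of 19 protease inhibitors that act on kallikreins 11 were tested, and 0 were called and 0 had an unadjusted p below 0.05 in limma, with a median difference of −0.06. Serpina4, the inhibitor kallistatin, differed by −0.06 ± 0.12 (SE). Of 22 substrates and receptors that kallikreins cleave 15 were tested, and 0 were called while 3 had an unadjusted p below 0.05 in limma, with a median of −0.14. F2rl1, the protease-activated receptor PAR2 that trypsin-like kallikreins can cleave, differed by 0.23 ± 0.34 (SE), with an adjusted p of 0.919 in limma. Its difference was 0.64 without LETO 1 and 0.0027 without LETO 2.

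For each tested member, the 3 genes without a kallikrein name that followed it most closely over the 6 arrays were listed by Pearson's r, as a description in which the step between strains makes up most of the pattern. For Klk12 they were Btla, an inhibitory receptor of lymphocytes (r = 0.998), Il6r, the interleukin 6 receptor (r = 0.998), and Mapk12, a p38 kinase (r = 0.997). For Klk10 they were Tdrd1, a tudor protein of germ cells (r = 0.994), C2, a complement component (r = 0.991), and Ctr9, part of the Paf1 complex (r = 0.991). For Klk1b21 they were Rhoq (r = 0.997), Akap17a (r = 0.993) and Slc35f1 (r = 0.992). For Klk1l they were an unnamed probe (r = 0.996), Gps2 (r = 0.995) and Tmf1 (r = 0.991). Only Tdrd1 and Ctr9 of the 11 named lie on chromosome 1 with the kallikreins.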

How the data were processed

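The 6 scanner files hold spot signals as linear intensity, with background subtracted by the authors' software, Agilent Feature Extraction, version 10.7.3.1 per the file headers and 9.1 per the submitters' processing notes. The deposited value table holds the same signal as a ratio to a constant per array. Strain, number and age follow the labels' titles and characteristics, although the source name of LETO 2 reads replicate 1. Control spots and outlier spots were left out, which removed 17 probes. Spots were averaged per probe on the log2 scale and the 75th percentile was subtracted. A probe was tested if well above background on all 3 arrays of a strain (21484 of 30367), and the brightest tested probe stood for a gene (18816). limma 3.58.1 in R 4.3.3 gave differences, with Benjamini-Hochberg adjustment over all genes. With 3 arrays per strain the number of arrays limits the precision. On simulated data over 18816 genes, the script was tested on known folds.

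The members and lists were chosen with earlier results of these data known. Named are the members, other kallikreins called or bright on all 6 arrays, called genes beside the locus and the nearest on each side, called list members, Kng1, Bdkrb1, Bdkrb2, Ace, Klkb1 and F2rl1, and the 3 genes most like each tested member. Others are marked as seen. An item of the marker lists is not reported here. Probe positions are rn4 as in the files, and RefSeq names were matched through accessions for 18387 probes (60.5%). Promoters were aligned with Biopython 1.88 (match 1, mismatch −1, gap opening −2, extension −0.5). Alternatives were quantile normalization, normexp with an offset of 50, the value table, both filters on dim probes, every probe, trend and robust, slide and replicate blocks, a 1 Mb window, and leaving out each array. Python 3.11.15, pandas 2.3.3, numpy 2.4.6, matplotlib 3.10.9 and the R package data.table, version 1.17.8, were used.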

Additional observations from a re-analysis of the deposited data

How the results depend on the processing

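All 4 tested members stayed lower in OLETF under every alternative that gave them a value, and the filter on all 6 arrays gave none to Klk12, Klk10 and Klk1b21. The number of all genes called, 480, was 240 with no filter on dim probes, 105 with slide as a block and 301 with the replicate block, and 212 to 614 when an array was left out, with 284 without LETO 2, 313 without OLETF 1, 223 without OLETF 2 and 212 without OLETF 3. Rats of the same replicate number showed no shared deviation from their strain means, with correlations of −0.09, −0.14 and −0.01 for numbers 1 to 3. These values cannot say whether the rats were paired by design. The 4 genes called beside the locus were 2 under quantile normalization, 2 under normexp with quantile normalization, 1 with no filter, 1 with slide as a block, 2 with the replicate block and 7 within 1 Mb, of which 1 was higher. Leaving out an array gave 1 to 4, with 1 each without LETO 2, OLETF 1, OLETF 2 and OLETF 3. The other kallikreins called were 0 to 1 when an array was left out, with the 1 being Klk1b3 without OLETF 1. The substrates called were 1 with trend and robust and 0 to 1 when an array was left out, with 1 without LETO 2. The kinin and inhibitor lists had 0 calls under all 15 alternatives. Signs that turned were those of differences near 0. Klk11 was −0.10 with slide as a block and −0.10 to 0.14 when an array was left out, ENSRNOT00000046737 was 0.060 under normexp, Bdkrb2 was −0.16 with slide as a block and −0.11 to 0.087 when an array was left out, and Ace was −0.13 to 0.15. The cause was not tested. Signal over background limits the sizes given for Klk12, Klk10 and Klk1b21, which were well above background on 1, 0 and 1 of 3 OLETF arrays.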
